A study of Mus musculus with 5 samples.

Results

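The Dlk1-Dio3 cluster is a group of imprinted genes on distal mouse chromosome 12, and its transcripts were followed here in parental mouse embryonic stem cells (ESCs) and in ESC-like cells grown out of the teratomas that these ESCs formed. The genes taken were Dlk1, Meg3, Rian, Mirg, Rtl1 and Dio3, each read from the brightest microarray probe set whose annotation names that gene and no other. Of these 6 genes, 5 had such a probe set, out of 19938 genes with a probe set of their own symbol on the array. Mirg has no value, because its only probe set is annotated to Mirg and Mir410 together. The genes were taken by position and name, and the mean over all 5 arrays decided which probe set was the brightest. The cluster was chosen with earlier results of these data known.

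RNA of 5 samples was hybridized to Affymetrix Mouse Gene 1.0 ST arrays, 1 array per sample, and the values are log2 expression values. Parental ESCs were a B6CBAF1 line, a hybrid of C57BL/6 mothers and CBA/ca fathers, that had not been injected. The homologous sample was ESC-like cells from a teratoma of these ESCs injected alone and subcutaneously into B6CBAF1 mice. The heterologous sample was ESC-like cells from ESCs injected alone into B6D2F1 mice, and its line came from the single teratoma that formed there. The co-injection samples, batch 1 and batch 2, were ESC-like cells from ESCs injected into B6D2F1 mice together with B6D2F1 fetal fibroblasts, with 1 fibroblast to 4 ESCs. Teratomas were collected after 5 weeks, and all cells, the parental ESCs included, were grown on a layer of inactivated ICR mouse fibroblasts with leukemia inhibitory factor. The study's methods give the teratoma-derived cells a higher concentration of this factor than the parental ESCs, whereas the sample labels give 1 concentration for both. If the methods hold, medium and teratoma passage cannot be told apart in any comparison with parental ESCs. No source used here gives the age or sex of the recipients. Only the co-injection condition had more than 1 array, so a spread (SD, n = 2) exists for it alone. The labels do not say whether the 2 batches came from separate teratomas, and differences between single arrays have no replicate check.

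In an imprinted cluster, a gene is read from the copy of 1 parent and kept silent on the other. On the paternal copy of this cluster Dlk1, Rtl1 and Dio3 are active, and on the maternal copy Meg3, Rian and Mirg, which are long noncoding RNAs that carry many small nucleolar RNAs (snoRNAs) and microRNAs (miRNAs) in their introns or exons. DNA methylation of a control region between Dlk1 and Meg3, inherited from the father, decides which set is read. In mouse stem cell lines the maternal RNAs are known to be prone to silencing in culture, and this has been tied to reduced developmental capacity. The arrays measured neither methylation nor the parental copy from which an RNA came.

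The RefSeq annotation (GRCm38.p6) places 103 genes between Dlk1 and Dio3, 61 of them miRNA genes, and 47 of the 103 had a probe set of their own: the 5 cluster genes, 40 miRNA genes and 2 snoRNAs. These probe sets are named for miRNA genes. The array does not measure the mature arms, so the values are not levels of mature miRNAs. All 40 miRNA genes matched a RefSeq entry, with 76 mature sequences between 20 and 26 bases long, and all lie on the plus strand, the strand of Meg3. The sequences printed here are those of the 5 miRNA genes that differed most between the heterologous array and parental ESCs, of the 2 that differed least, and of the genes that share a seed. The seed, bases 2 to 8 counted from the 5′ end and the part that pairs with targets, is in capitals.
miR-380-5p: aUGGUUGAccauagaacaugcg
miR-380-3p: uAUGUAGUaugguccacaucuu
miR-377-5p: aGAGGUUGcccuuggugaauuc
miR-377-3p: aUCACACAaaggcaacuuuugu
miR-154-5p: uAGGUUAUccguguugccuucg
miR-154-3p: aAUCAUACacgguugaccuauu
miR-369-5p: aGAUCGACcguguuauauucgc
miR-369-3p: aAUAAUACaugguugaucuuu
miR-379-5p: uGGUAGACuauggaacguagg
miR-379-3p: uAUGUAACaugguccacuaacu
miR-411-3p: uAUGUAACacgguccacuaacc
miR-376b-5p: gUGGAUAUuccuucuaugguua
miR-376c-5p: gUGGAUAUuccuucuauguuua
miR-431-5p: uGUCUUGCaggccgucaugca
miR-666-5p: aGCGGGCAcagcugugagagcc

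Almost every seed of the measured miRNA genes was its own. The 76 mature sequences held 74 seeds, and only AUGUAAC (miR-379-3p and miR-411-3p) and UGGAUAU (miR-376b-5p and miR-376c-5p) occurred in more than 1 gene. Between miR-376c-5p and miR-376b-5p 1 base differed, and between miR-379-3p and miR-411-3p 2 bases differed. Whether probes for such similar genes read each other's RNA was not tested.

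The maternal transcripts start at the Meg3 promoter. RefSeq lists 2 promoter windows for Meg3, and the 300 bases around the first start (250 before and 50 after, chr12:109540746-109541045, plus strand, GRCm38.p6, sequence from RefSeq) are shown with each CpG, the pair of bases that methylation marks, in capitals.
Meg3 promoter: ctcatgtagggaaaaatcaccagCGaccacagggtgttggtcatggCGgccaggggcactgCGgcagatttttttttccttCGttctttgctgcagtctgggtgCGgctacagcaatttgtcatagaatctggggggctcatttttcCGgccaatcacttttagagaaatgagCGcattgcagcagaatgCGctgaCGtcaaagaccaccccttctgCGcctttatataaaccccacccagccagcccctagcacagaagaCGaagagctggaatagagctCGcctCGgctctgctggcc
This window held 13 CpGs, against a median of 7 over 32851 promoter windows of the same length. The motif TGCCGC, the letters recognised by the imprint-protecting zinc finger protein Zfp57 when methylated, occurred 1 time on either strand, and 11.6% of all promoter windows hold it. TATAAA, searched on both strands, occurred 2 times in overlapping letters, and 13.6% of all windows hold it. The second Meg3 window (chr12:109545148-109545447, plus strand), not printed, held 1 CpG, and neither motif was found in it. The Dlk1 window (chr12:109452573-109452872, plus strand) held 9 CpGs, and TGCCGC was not found in it. The Rian window held 0 CpGs, the Mirg window 10 and the Dio3 window 25.

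Among the maternal RNAs, Meg3 and Rian were higher than in parental ESCs in every ESC-like array. Meg3, the RNA at the start of the maternal unit, was at 11.10 in parental ESCs, 12.08 in the homologous array, 12.38 in the heterologous array, and 11.78 and 11.45 in the co-injection arrays. Its order was heterologous, homologous, co-injection and parental from high to low, and the co-injection mean of 11.61 ± 0.23 (SD, n = 2) was 0.51 above the parental value. The difference from parental ESCs was 1.27 in the heterologous array, a 2.42-fold higher value, and 0.97 (1.96-fold) in the homologous array, just inside 2-fold.

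Rian, the snoRNA host that follows Meg3, was at 6.39 in parental ESCs, 7.73 in the homologous array, 8.15 in the heterologous array, and 7.86 and 7.28 in the co-injection arrays. The parental array was lowest by far, and the homologous value lay between those of the co-injection pair. Rian was 2.54-fold higher than in parental ESCs in the homologous array, 3.39-fold higher in the heterologous array and 2.27-fold higher in the co-injection mean (log2 difference 1.18 ± 0.41, SD, n = 2). The co-injection call rested on batch 1, with a difference of 1.47, while batch 2 was at 0.89. Rian is also a dim probe set, with a mean of 7.48 against a median of 7.49 over all values of the table.

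**Figure D1:**
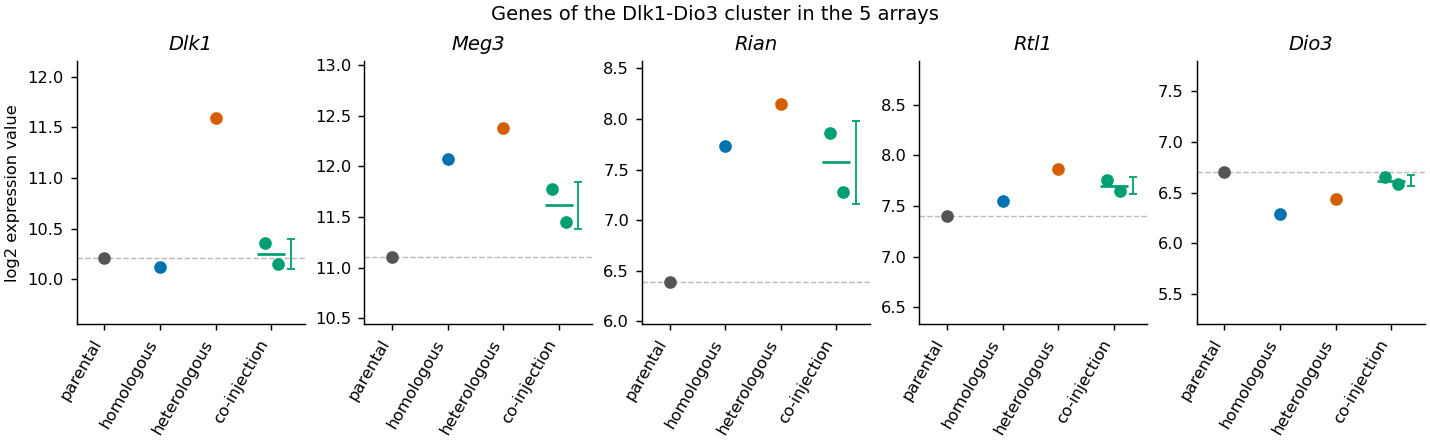
Log2 expression values (vertical axes, a separate range per gene) of the 5 cluster genes in the parental, homologous, heterologous and co-injection arrays. Points are arrays, the short line and bar are the mean ± SD of the co-injection pair (n = 2) and the dashed line is the parental value. Meg3 and Rian lay above the parental value in all 4 ESC-like arrays, and Dlk1 stood apart in the heterologous array at 11.59.

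The paternal genes did not move as a unit. Dlk1, a transmembrane protein with EGF-like repeats of the Notch ligand family that holds progenitor cells back from differentiation, was at 10.21 in parental ESCs, 10.12 in the homologous array, 11.59 in the heterologous array, and 10.35 and 10.15 in the co-injection arrays. The heterologous array alone stood out, at 2.61-fold above parental ESCs, while the parental and homologous values and the co-injection mean of 10.25 ± 0.15 (SD, n = 2) lay within 1 SD of each other.

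Rtl1, a gene derived from a retrotransposon that is needed in the placenta, was at 7.40, 7.55 and 7.86 in the parental, homologous and heterologous arrays, and at 7.76 and 7.65 in the co-injection arrays. All 4 ESC-like arrays were above the parental one by less than 2-fold, with differences of 0.15, 0.46 and a co-injection mean of 0.30 ± 0.081 (SD, n = 2). With the median difference of 40 neighbouring genes subtracted, the heterologous difference of Rtl1 was -0.06. The miRNA genes Mir431, Mir127, Mir434 and Mir136 are read from the opposite strand of the same place, and how the probes treat strand was not tested. Dio3, the deiodinase that inactivates thyroid hormone, was at 6.70, 6.29 and 6.44 in the parental, homologous and heterologous arrays, and at 6.65 and 6.58 in the co-injection arrays. Alone among the 5 genes, Dio3 had its highest value in parental ESCs, with every ESC-like array lower by less than 2-fold, and its probe set was dim.

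Beside all genes, 1 of 5 cluster genes was more than 2-fold higher in the homologous array (Rian), where 1.45% of all genes were. In the heterologous array 3 of 5 were more than 2-fold higher (Dlk1, Meg3 and Rian), against 3.98% of all genes, and in the co-injection mean 1 of 5 (Rian), against 0.647% of all genes. No cluster gene was lower by over 2-fold in these comparisons, where 1.6%, 1.95% and 1.44% of all genes were. The median difference of the 5 genes was 0.15, 1.27 and 0.30 ± 0.081 (SD of the array medians, n = 2) in the order homologous, heterologous, co-injection, and that of all genes was -0.01, -0.04 and 0.04. All 3 comparisons subtract the same parental array, so a deviation of that array enters each of them. In a limma fit of all 5 arrays as 4 conditions, which leaves 1 residual degree of freedom, 0 of the 5 genes and 0 of all 19938 genes passed an adjusted p of 0.05 (Benjamini-Hochberg) in any comparison. The cluster genes at an unadjusted p under 0.05 in that fit differed from those past 2-fold. They included Dio3 in the homologous comparison, at -0.41, and Rtl1 in the heterologous one, at 0.46, but Rian in neither.

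The 40 miRNA genes of the cluster followed the maternal RNAs in the arrays of ESCs injected alone and less so after co-injection. In the heterologous array 31 of 40 exceeded parental ESCs by over 2-fold, none was lower by as much, and the median difference was 1.53. In the homologous array 11 of 40 did so and none was lower by as much, with a median of 0.71. In the co-injection mean 0 of 40 passed 2-fold in either direction, with a median of 0.23 ± 0.084 (SD of the array medians, n = 2). In batch 1 of the co-injection 1 of them did, Mir380. The 257 miRNA genes elsewhere in the genome had medians of -0.03, -0.02 and 0.07 in the heterologous, homologous and co-injection comparisons, and 3.5%, 0.778% and 0% of them were more than 2-fold higher.

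The order of the arrays was much the same from gene to gene. The heterologous array was above the homologous one at 40 of 40 miRNA genes and the highest of all 5 arrays at 37. It was above the homologous one at 8469 of all 19938 genes and at 119 of the 257 miRNA genes elsewhere. The order heterologous, homologous, parental held at 37 of 40. Both co-injection arrays were above parental ESCs at 29 of 40 and both below at 3. Of all 19938 genes, 10162 were above parental ESCs in batch 1 and 11902 in batch 2. Orders over several arrays were not counted outside the cluster. These genes share host transcripts and arrays, so they are not independent observations, and 23 of the 40 had a mean below the median of all values. Their median level was 6.50 in parental ESCs, 7.23 in the homologous and 8.14 in the heterologous array, with 6.79 and 6.65 in the co-injection arrays.

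Mir380 had the largest difference of the miRNA genes in the heterologous array. It was at 6.08 in parental ESCs, 8.03 in the homologous array, 9.16 in the heterologous array, and 7.48 and 6.47 in the co-injection arrays. That is 8.43-fold above parental ESCs in the heterologous array and 3.85-fold in the homologous array, and the co-injection pair differed from each other more than at any other cluster miRNA gene (SD 0.71).

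Mir377 was at 8.20 in parental ESCs, 10.01 in the homologous array, 10.67 in the heterologous array, and 8.69 and 8.18 in the co-injection arrays. Mir154 was at 5.85, 6.89 and 8.30 in the parental, homologous and heterologous arrays, and at 6.01 and 5.62 in the co-injection arrays. In both genes the ESCs injected alone stood above the other 3 arrays, and the co-injection pair lay on either side of the parental value.

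Mir369 was at 6.06, 7.04 and 8.45 in the parental, homologous and heterologous arrays, and at 6.59 and 6.13 in the co-injection arrays. Mir379, at the start of the large miRNA group beyond Rian, was at 4.54, 5.65 and 6.91 in the parental, homologous and heterologous arrays, and at 4.36 and 4.31 in the co-injection arrays. Mir379 was thus 5.18-fold higher than parental ESCs in the heterologous array and below parental ESCs in both co-injection arrays. Mir411, whose 3p seed is the same, had the same order, with differences of 0.55, 1.35 and -0.27 ± 0.20 (SD, n = 2) in the homologous, heterologous and co-injection comparisons. The other pair with a shared seed, Mir376b and Mir376c, was higher by 1.44 and 1.82 in the heterologous array, and at 0.054 and -0.036 in the co-injection mean.

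Some miRNA genes hardly differed between arrays. Mir431 was at 7.69, 7.62 and 7.74 in the parental, homologous and heterologous arrays, and at 7.88 and 7.94 in the co-injection arrays. Mir666 was at 8.32, 8.25 and 8.26 in the parental, homologous and heterologous arrays, and at 8.45 and 8.41 in the co-injection arrays. For both, the co-injection arrays were the highest, by less than 2-fold. At 5 of the 40 miRNA genes 1 value was repeated in 2 or more arrays to all digits: Mir337, Mir540 and Mir136 had the same value in the homologous and both co-injection arrays.

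**Figure D2:**
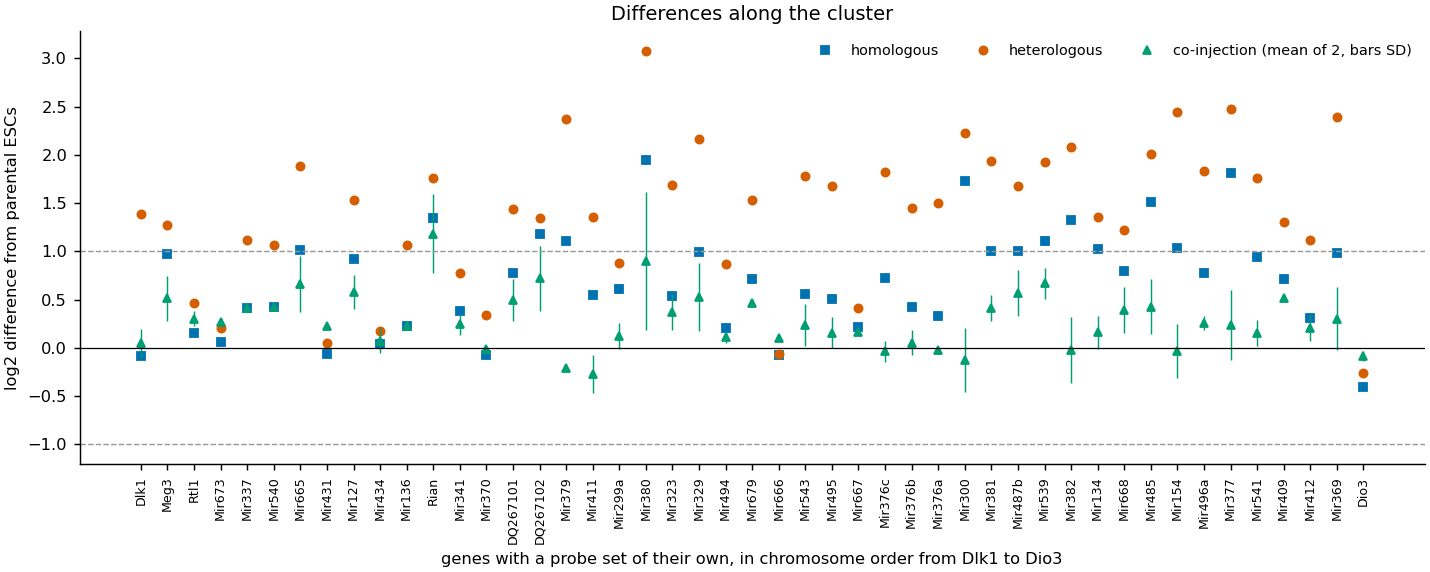
Log2 difference from parental ESCs (vertical axis) of the 47 genes with a probe set of their own, in chromosome order from Dlk1 to Dio3 (horizontal axis), for the homologous array (squares), the heterologous array (circles) and the co-injection mean (triangles, bars SD, n = 2). Dashed lines mark 2-fold. The heterologous circles lay above the homologous squares at all 40 miRNA genes and reached 3.08 at Mir380, and no co-injection triangle of a miRNA gene reached 2-fold.

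The gap between the homologous and co-injection arrays differed by place in the cluster. The 8 miRNA genes before Rian, Mir127 and Mir665 among them, had median differences of 0.32, 1.06 and 0.34 ± 0.019 (SD of the array medians, n = 2) in the homologous, heterologous and co-injection comparisons. For the 30 miRNA genes beyond Rian these were 0.79, 1.72 and 0.19 ± 0.14. The homologous array was above both co-injection arrays at 2 of 8 miRNA genes before Rian and at 29 of 30 beyond it. Of all 19938 genes, 7554 were lower than the homologous array in batch 1 and 6678 in batch 2. Genes lower in both batches were not counted outside the cluster. At 3 of the 8 before Rian (Mir337, Mir540 and Mir136) the homologous and both co-injection values were identical, so these could not count as above, and they also enter the medians and the small SD given for that place. Mir673, Mir431 and Mir434, also before Rian, differed from parental ESCs by only 0.06, -0.07 and 0.04 in the homologous array. The 2 with the homologous value above both co-injection arrays were Mir665 (1.01) and Mir127 (0.92). Meg3 also lay above both. The count before Rian thus rests on few genes that moved, and the difference by place was not tested. Mir127, antisense to Rtl1, was 1.89-fold higher than parental ESCs in the homologous array, 2.90-fold in the heterologous array, and by 0.58 ± 0.17 on the log2 scale (SD, n = 2) in the co-injection mean.

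Inside Rian, the snoRNA DQ267102 was at 10.18, 11.37 and 11.53 in the parental, homologous and heterologous arrays, and at 11.14 and 10.67 in the co-injection arrays. The snoRNA DQ267101 was at 5.40, 6.17 and 6.84, and at 6.05 and 5.74. Both followed the order of Meg3. The miRNA genes inside Rian, Mir341 and Mir370, differed by 0.78 and 0.34 in the heterologous array, under 2-fold.

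**Figure D3:**
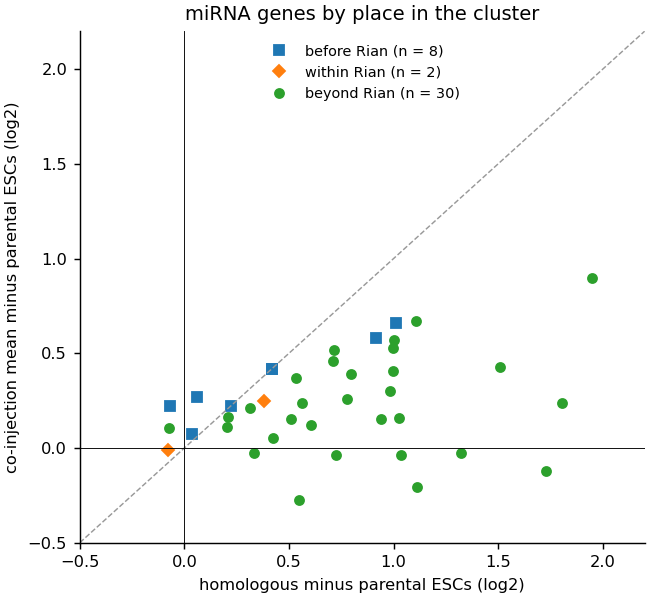
Log2 difference from parental ESCs of the 40 cluster miRNA genes in the homologous array (horizontal axis) and in the co-injection mean (vertical axis), by place in the cluster. On the dashed line both differences are equal, and points of equal value overlap. Genes before Rian (squares) lay on the line or on either side of it, and all but 1 of the 30 genes beyond Rian (circles) lay below it.

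Between the ESC-like lines, the co-injection condition was lower than the heterologous array at 24 of 40 miRNA genes by more than 2-fold, against 2.99% of all genes and 3.5% of the other miRNA genes, with a median of -1.24 ± 0.17 (SD of the array medians, n = 2). Of the 5 cluster genes 1, Dlk1, was more than 2-fold lower there, 2.53-fold, with differences of -1.24 and -1.44 in the co-injection arrays. None of the cluster genes or its miRNA genes was higher by over 2-fold, as 0.361% of all genes were. Rian differed by -0.58 ± 0.41 and Meg3 by -0.76 ± 0.23 (SD, n = 2).

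The co-injection condition was more than 2-fold lower than the homologous array at 7 of 40 miRNA genes, against 0.351% of all genes and 0.389% of the other miRNA genes, and higher at none, where 0.0752% of all genes were. The 7 were Mir379, Mir380, Mir300, Mir382, Mir485, Mir154 and Mir377, all beyond Rian. Mir300 had the largest difference, -1.85, and was at 8.15 in the homologous array and at 6.53 and 6.06 in the co-injection arrays. None of the 5 cluster genes differed by more than 2-fold in this comparison. Without batch 2 the count of miRNA genes was 4 in place of 7.

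The heterologous array was more than 2-fold above the homologous one at 12 of 40 miRNA genes and at 1 of 5 cluster genes, Dlk1 (2.77-fold), against 2.41% of all genes and 2.72% of the other miRNA genes. None of the 5 or the 40 was lower, where 0.647% of all genes were by over 2-fold. Meg3 and Rian differed by 0.30 and 0.42 in this comparison, while the co-injection arrays differed from each other by up to 0.58 among the cluster genes, at Rian. In the limma fit, 0 of 40 miRNA genes passed an adjusted p of 0.05 in any of the 6 comparisons, while 9 to 35 of them were at an unadjusted p under 0.05, as were 2905 to 6246 of all 19938 genes. The low end was co-injection against parental ESCs, with 9 of 40 miRNA genes and 5177 of all genes. In the comparisons between ESC-like lines the counts were 21 of 40 miRNA genes and 4880 of all genes for heterologous against homologous, 33 and 5930 for co-injection against heterologous, and 12 and 2905 for co-injection against homologous. With the 4 ESC-like arrays as 1 group against parental ESCs, limma called 1.07% of all genes and again 0 of the 5 cluster genes and 0 of the 40 miRNA genes, of which 1 and 0 were at an unadjusted p under 0.05, as were 3135 of all 19938 genes.

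The neighbours of the cluster were also higher in the heterologous array, though by less. The flanking set held the 40 nearest genes with a mean above the median of all values, 20 on each side. Their median difference from parental ESCs was 0.52 in the heterologous array, with 36 of 40 above 0. Of all 19938 genes, 7389 were above 0 there, with a median of -0.04. Genes of like brightness elsewhere were not compared. The flanking median was -0.02 (homologous) and 0.03 ± 0.021 (co-injection mean, SD of the array medians, n = 2) in the other conditions. The side before Dlk1 had a heterologous median of 0.51 and the side beyond Dio3 one of 0.59. The paper's chromosome counts found more aneuploidy, a chromosome number other than normal, in all teratoma-derived ESC-like cells than in parental ESCs. Those counts do not say which chromosomes changed. The part of chromosome copy number in the differences of the cluster and its neighbours was not tested. The mean that admitted these genes included the heterologous array, so a high value there could bring a gene into the set. Tnfaip2 and Gskip were at 9.20 and 8.56 in that array. In the others they were between 7.14 and 7.94 and between 6.93 and 7.51. The highest neighbours were Eml1, a microtubule-binding protein, at 2.08 and Tnfaip2 at 1.82, and the lowest were Tcl1, an activator of Akt, at -1.68 and the mitochondrial carrier Slc25a47 at -0.19. Tcl1 was also below parental ESCs by over 2-fold in the other conditions, at -1.14 (homologous) and -1.33 (co-injection mean).

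With the flanking median subtracted, 1 of 5 cluster genes was more than 2-fold above parental ESCs in the heterologous array in place of 3, Rian at 1.24, while Dlk1 was at 0.86 and Meg3 at 0.75. The miRNA genes then had a heterologous median of 1.01. Against the homologous array the miRNA count went from 12 to 0, and Meg3 and Rian went from above to below it (-0.27 and -0.15), while Dlk1 stayed above it by 0.90. The subtracted median also covers neighbours that a high heterologous value could admit, and the part of the neighbours' difference in these results was not tested. No share of all genes was computed with the flanking median subtracted.

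**Figure D4:**
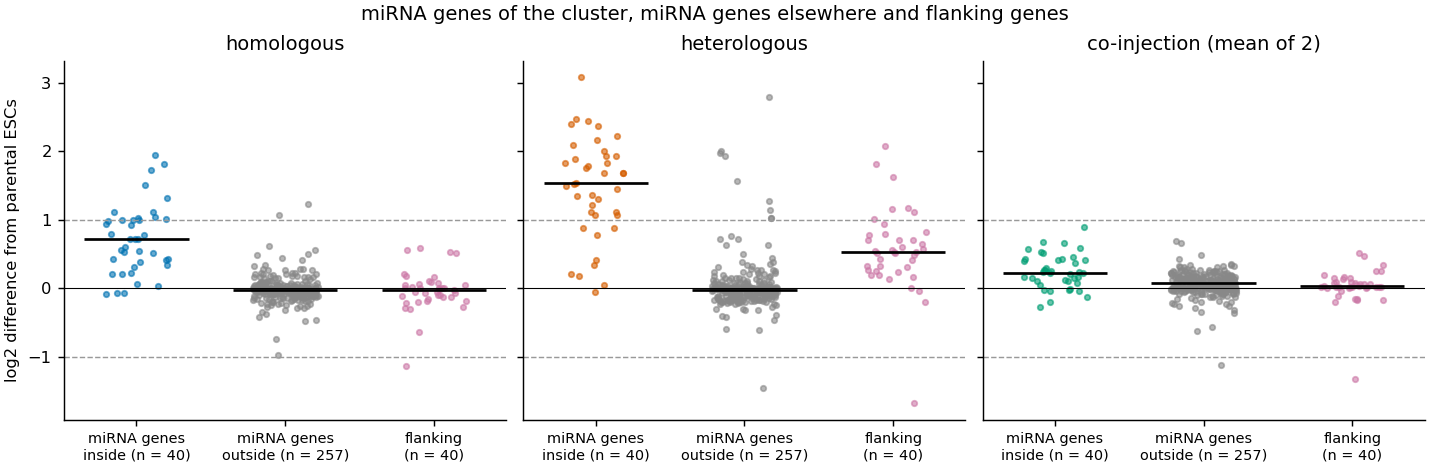
Log2 difference from parental ESCs (vertical axis) of each miRNA gene inside the cluster (n = 40), miRNA gene outside it (n = 257) and flanking gene (n = 40) in the homologous array, the heterologous array and the co-injection mean. Black bars are medians and dashed lines mark 2-fold. In the heterologous array the medians were 1.53, -0.03 and 0.52.

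Markers of other cells moved in the same arrays. Of 25 fibroblast genes 24 had a probe set. In the heterologous array 17 of them exceeded parental ESCs by over 2-fold, against 3.98% of all genes, with a median difference of 1.70. None was lower by as much there, where 1.95% of all genes were. The matrix proteins Postn (3.30) and Thbs2 (3.29) and the collagen gene Col1a1 (2.33) were among the highest. In the homologous array 2 of 24 were more than 2-fold higher, against 1.45% of all genes, with a median of 0.39. In the co-injection mean 1 was higher and 4 were lower by as much, against 0.647% and 1.44% of all genes, with a median of -0.15. Summed on the linear scale, the fibroblast genes were at 1.19 times the parental level in the homologous array, 2.32 times in the heterologous array and 0.920 and 0.917 times in the co-injection arrays. All cultures held a fibroblast layer, and the part of fibroblast RNA in the values of the cluster was not tested. In bulk RNA, fewer cells of a type and less RNA per cell cannot be told apart.

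The 14 pluripotency genes were measured in every sample, and their summed linear level was 0.832 times the parental one in the homologous array, 0.751 times in the heterologous array and 0.843 and 0.844 times in the co-injection arrays. Pou5f1 was at 12.60 in parental ESCs and between 12.29 and 12.40 in the ESC-like arrays. In the heterologous array 5 of 14 were more than 2-fold lower, against 1.95% of all genes, Zfp42 (-1.63) and Klf4 (-1.43) among them. The 10 neural genes had a heterologous median of 0.59, and 4 of them were more than 2-fold higher, against 3.98% of all genes. The highest was Fabp7, a lipid-binding protein of radial glia, at 4.65. In the homologous array 2 neural genes were more than 2-fold higher and 1 was lower, against 1.45% and 1.6% of all genes. In the co-injection mean 1 was higher and 1 lower, against 0.647% and 1.44%. None of the 8 liver and endoderm genes passed 2-fold in a comparison with parental ESCs, which in so short a list lies near the shares of all genes.

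**Figure D5:**
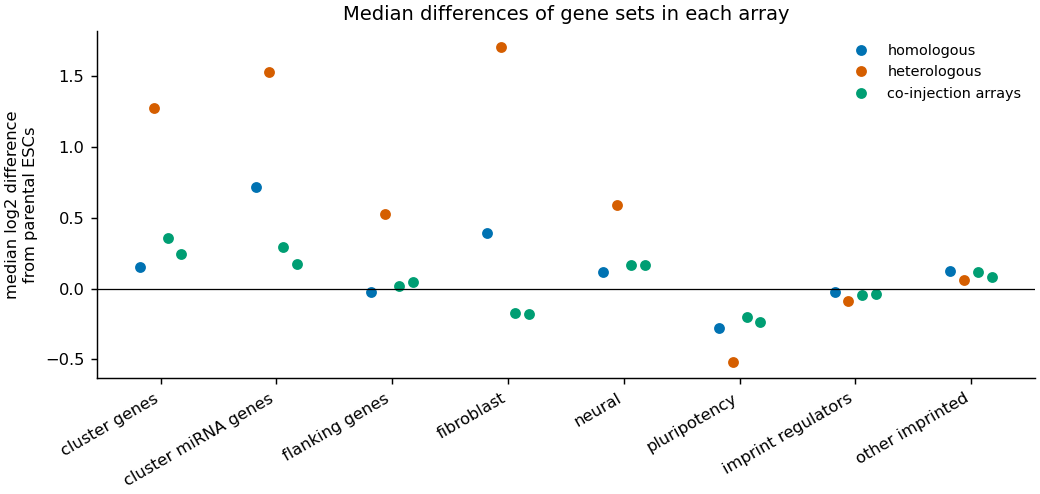
Median log2 difference from parental ESCs (vertical axis) of the 5 cluster genes, the 40 cluster miRNA genes, the 40 flanking genes and 5 gene lists (horizontal axis), 1 point per ESC-like array. The heterologous points stood apart for the cluster (1.27), its miRNA genes (1.53), the flanking genes (0.52) and the fibroblast genes (1.70). They were also furthest from 0 for the neural genes (0.59) and the pluripotency genes (-0.52). The 4 arrays lay close together for imprint regulators and other imprinted genes.

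Genes that set or guard imprints had medians near 0, with some members past 2-fold. Of 18 such genes measured, 3 were more than 2-fold higher in the homologous array, 2 in the heterologous array and 3 in the co-injection mean, where 1.45%, 3.98% and 0.647% of all genes were. Their medians were -0.03, -0.09 and -0.04. Dnmt3a, a de novo DNA methyltransferase, was higher in all conditions by 1.10, 1.43 and 1.32 ± 0.13 (SD, n = 2) in the homologous, heterologous and co-injection comparisons. Aff3, a protein that binds the methylated control region of this cluster, was higher by 1.64, 1.09 and 1.27 ± 0.069. Dppa3, which shields methylation in the egg and early embryo, exceeded parental ESCs by 1.94 (homologous) and 1.76 ± 0.10 (co-injection mean) and was at -0.21 in the heterologous array.

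The 1 imprint gene that was more than 2-fold lower was Tet2, which oxidises methylated cytosine. It was at -1.05 in the heterologous array, where 1.95% of all genes were lower by as much. Zfp57 and its partner Trim28 did not pass 2-fold in any of these comparisons, with Zfp57 at -0.64 (homologous), -0.26 (heterologous) and -0.42 (co-injection mean). Dnmt1, the maintenance methyltransferase, was at -0.02 (homologous), -0.20 (heterologous) and -0.04 (co-injection mean).

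Of 39 other imprinted genes, 32 had a probe set. In the homologous, heterologous and co-injection comparisons 5, 5 and 3 of them were more than 2-fold higher and 1, 0 and 1 lower, beside the same shares of all genes (1.45%, 3.98% and 0.647% higher, 1.6%, 1.95% and 1.44% lower), and the medians were 0.13, 0.06 and 0.11. Igf2, the paternally expressed fetal growth factor, was higher by 1.40, 2.74 and 1.31 ± 0.042 (SD, n = 2). Gatm, an enzyme of creatine synthesis, was higher by 1.12, 1.44 and 1.33 ± 0.059. Plagl1, a zinc finger protein that acts on other imprinted genes, was lower by more than 2-fold in the homologous array (-1.58) and the co-injection mean (-1.24), and was at -0.19 in the heterologous array.

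The pathways and families of Dlk1, Dio3 and Rtl1 were described by 3 further lists. Of 19 Notch pathway genes, 2, 2 and 1 were more than 2-fold higher in the homologous, heterologous and co-injection comparisons, and Jag2, a Notch ligand, was higher in each by 1.23, 1.86 and 1.22 ± 0.013 (SD, n = 2). Of all genes 1.45%, 3.98% and 0.647% were higher by as much. The receptor Notch4 was at -0.94, -1.07 and -0.99. It was the 1 Notch pathway gene more than 2-fold lower, in the heterologous array only, where 1.95% of all genes were. None of 12 thyroid hormone genes, of 14 listed, passed 2-fold in these comparisons, which in so short a list lies near the shares of all genes. The deiodinases Dio1 and Dio2 were at -0.18 and -0.01 in the heterologous array. Of 12 retrotransposon-derived genes measured, of 19 listed, 2 were more than 2-fold lower in each comparison, Pnma5 and Ldoc1, where 1.6%, 1.95% and 1.44% of all genes were, and none was higher. Pnma5 was at -3.08 (homologous), -3.34 (heterologous) and -2.80 ± 0.22 (co-injection mean, SD, n = 2).

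The profile over the 4 ESC-like arrays, each minus parental ESCs, was compared with that of 11599 genes with a mean above the median of all values. The measure was the root mean square distance of the 4 differences. Rian, Dio3, DQ267101 and 23 of the 40 cluster miRNA genes had a mean below that median and were not ranked. Closest to Meg3 were Mir668 (distance 0.125), Cthrc1 (0.137), Zic2 (0.139), Mir127 (0.146) and Slc4a4 (0.146), of which Mir668 and Mir127 belong to the cluster. Closest to Dlk1 were Vgll3 (0.0726), Ccn2 (0.127), Trmt61a (0.128), Dkk2 (0.131) and Bcl11a (0.134), of which Trmt61a is one of the flanking genes. Dlk1 was at rank 1464 among the profiles nearest to Meg3. All 4 differences contain the same parental array. The mean that admitted the ranked genes included the heterologous array, so a high value there could bring in a gene with a profile like that of Dlk1.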

How the data were processed

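Total RNA of 5 samples was hybridized to Affymetrix Mouse Gene 1.0 ST arrays. Per the labels and methods, the authors read intensities in GCOS, normalized them by RMA (quantile) and deposited log2 values. Versions and genome build: not given in the sources used here. No array coordinates are therefore printed. The table held 35556 probe sets per array, with values from 2.77 to 13.97 and array medians from 7.48 to 7.54. No scanner files were used here, so background, dim-spot flags and slides were not examined, and the number of arrays limits the precision.

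Probe sets were named by the platform annotation, of which 21789 had 1 symbol, 1621 several and 12146 none. The brightest probe set per gene was used. Differences are log2 values of 1 array, or the co-injection mean, minus another, and a gene was called past 2-fold. Chromosome order and sequences came from RefSeq GRCm38.p6. By rule, the text names the cluster genes, up to 10 transcripts between Dlk1 and Dio3 with the largest difference from parental ESCs, the 2 highest and 2 lowest flanking and list genes, and the 5 profiles nearest to Meg3 and Dlk1. Other genes were chosen after their values were seen. The cluster genes, lists and alternatives were chosen with earlier results of these data known. No gene list or test on these arrays is therefore independent support.

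limma 3.58.1 (eBayes, Benjamini-Hochberg) was run on all probe sets as an alternative, as 4 conditions and with the ESC-like arrays as 1 group, with R 4.3.3, Python 3.11.15, pandas 2.3.3 and numpy 2.4.6. On simulated arrays with known changes, the fold rule was checked for recovery and the limma differences against plain subtraction. The simulated noise came from the co-injection pair alone, and the limma calls were not held to a limit. Other alternatives were thresholds of 1.5-fold and 3-fold, the mean of probe sets, cyclic loess, leaving out dim probe sets or a co-injection array, and subtracting the flanking median.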

Additional observations from a re-analysis of the deposited data

Results flagged for a closer look

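Dlk1 went opposite ways in the lines from ESCs injected alone. It was 0.09 lower than parental ESCs in the homologous array (-0.09) and 1.38 higher in the heterologous array, a gap of 1.47 that drew attention because the direction differed. Each side is 1 array and both subtract the same parental array, so the gap has no replicate check of its own. In the limma fit, whose spread comes from the co-injection pair and leaves 1 residual degree of freedom, its adjusted p was 0.194 (unadjusted 0.0150), which did not pass 0.05. The homologous value is within the SD of 0.15 of the co-injection pair, and the gap was 0.90 with the flanking median subtracted.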

How the results depend on the processing

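With 1 array for 3 of the 4 conditions, single-array differences have no error, and dim probe sets give folds of limited accuracy. Of the values recomputed, 105 of the main counts and medians stayed within their limits and 57 moved. The alternatives for miRNA genes were chosen after seeing the data. Shares of all genes were computed for the 2-fold rule only. Counts at other thresholds, without dim probe sets or with the flanking median subtracted therefore have no share of all genes beside them. No paired analysis was possible because the conditions share only replicate number 1, which names a single array.

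For the 5 cluster genes, a threshold of 1.5-fold gave 2 calls in the homologous against parental comparison and 2 in co-injection against heterologous. At 3-fold the counts were 0 (homologous), 1 (heterologous) and 0 (co-injection) against parental ESCs, 0 for heterologous against homologous and 0 for co-injection against heterologous. Without the dim probe sets, which leaves 3 genes, 0 were called in the homologous and 0 in the co-injection comparison. Without one of the co-injection arrays the co-injection count ranged from 0 to 1. With the flanking median subtracted, the counts were 1 (heterologous against parental), 0 (heterologous against homologous) and 0 (co-injection against heterologous), and the medians 0.75, -0.26 and -0.042. limma called 0 cluster genes and 0 cluster miRNA genes in all comparisons, both with 4 conditions and with the ESC-like arrays as 1 group. The latter fit called 214 of 19938 genes at an adjusted p of 0.05, and Rian had an adjusted p of 0.201.

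For the 40 miRNA genes, 1.5-fold gave 22 (homologous) and 3 (co-injection) against parental ESCs, 28 for heterologous against homologous and 13 for co-injection against homologous. At 3-fold the counts were 3 (homologous), 19 (heterologous), 0 (heterologous against homologous), 11 (co-injection against heterologous) and 1 (co-injection against homologous). Without dim probe sets 17 miRNA genes were left, and the counts were 6, 12, 1, 8 and 3 in the same order. The medians were then 1.35 (heterologous) and 0.39 (co-injection) against parental ESCs, 0.62 for heterologous against homologous and -0.95 for co-injection against heterologous. With the flanking median subtracted, the counts were 0 (heterologous against homologous) and 14 (co-injection against heterologous), and the medians 1.01 (heterologous against parental), 0.21 and -0.71. The 35 miRNA genes without repeated values had a heterologous median of 1.68. Without one of the co-injection arrays the counts ranged from 0 to 1 against parental ESCs and from 4 to 7 against the homologous array. No difference of the 5 cluster genes that passed 2-fold changed sign under these alternatives, and the signs of single miRNA genes were not followed.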
